A study of Mus musculus with 8 samples.

Results

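The B cell receptor signalling pathway carries the signal of bound antigen from the cell surface to calcium release and gene expression, and 38 of its genes were listed by name for description here. Each gene was represented by its brightest probe set, the one with the highest mean signal over all 8 arrays among those annotated to that gene alone. Of the 38 genes 35 had such a probe set, out of 18193 genes represented in the same way on the array, and the other 3 were not analysed here. All 35 lay above the limit set for dim probe sets, and they fall into 5 steps: receptor and coreceptors (4 genes), kinases (8), adaptors (13), phosphatases (3), and calcium and NFAT (7).

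RNA came from splenic B cells of 12-week-old C57BL/6 mice, enriched by magnetic removal of other cells, with 4 arrays from irf4-/- mice and 4 from irf4+/+ littermates (wild type). The labels name neither the deleted exons nor a separate mouse for each array, so each p-value rests on array-to-array variation that could be technical in part. Signals are MAS5 intensities, which stand for RNA abundance on a linear scale, and fold changes are differences of log2(signal + 16), irf4-/- minus wild type. A gene was called when its adjusted p was below 0.05 over all 27022 probe sets tested.

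When antigen clusters the B cell receptor, Src family kinases phosphorylate the tail motifs of the CD79A and CD79B chains, and the kinase SYK docks there. SYK and BTK then activate the phospholipase PLCG2 on the adaptor BLNK. Its products open calcium stores, which activates NFAT, and switch on protein kinase C beta and RASGRP3, which lead to NF-kappaB and RAS, while phosphatases and inhibitory coreceptors hold the pathway back. IRF4 is a transcription factor that B cells raise after receptor signalling and need to become plasma cells.

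Irf4 itself checked the labels: its brighter probe set read 2035, 1720, 1779 and 2341 in wild type against 285, 259, 244 and 315 in irf4-/-. It averaged 1969 ± 283 (SD) in wild type against 276 ± 31.3 in irf4-/-, and its log2 fold change was -2.76 ± 0.12 (SE; limma with an adjusted p of 4.6e-06), so the RNA that hybridised to it was lower on all 4 irf4-/- arrays. The B cell markers Ms4a1, Pax5, Cd22, Ighm, Fcer2a, Cr2 and Cd37, 7 in all, had a mean log2 level of 12.77 to 13.08 on wild-type arrays and 12.68 to 12.81 on irf4-/- arrays. Their summed signal was 75993 to 85679 in wild type and 71853 to 75322 in irf4-/-, without overlap, and 1 of them, Fcer2a, was called lower. Arrays differed in Xist, the RNA of the inactive X chromosome of females, which was high on wild-type arrays 1, 3 and 4 and irf4-/- array 1 (17119 to 19652) and low on the other 4 (49.2 to 94.8). Of 41 markers of T, NK, neutrophil, myeloid, erythroid and platelet lineages, 39 lay above the dim limit and none read 0. The 6 NK cell markers moved with both genotype and the Xist split: all 6 had positive fold changes in irf4-/- with an unadjusted p below 0.05 (median log2 fold change 1.28), 1 was called higher (limma), and 2 were called higher with the Xist-high term, where the median was 0.68. For the Xist-high term itself 5 of the 6 were called lower on Xist-high arrays (limma). So were 6 of 8 neutrophil markers, 6 of 10 monocyte, macrophage and dendritic cell markers and 1 of 9 T cell markers tested, but no erythroid or platelet marker. All 8 neutrophil markers had positive fold changes in irf4-/- (median 1.35, and 0.23 with the Xist-high term), but none had an unadjusted p below 0.05. Their summed signal ran from 5449 to 52264 within wild type. The 41 markers of other cells together had a summed signal of 29394 to 104222 in wild type and of 39836 to 123181 in irf4-/-. The mean log2 level of the 41 ran from 8.06 to 8.41 on Xist-high and from 9.01 to 9.67 on Xist-low arrays. This level and Xist therefore divide the arrays alike. So does the mean log2 level of the 7 B cell markers, at 12.81 to 13.08 on Xist-high and 12.68 to 12.78 on Xist-low arrays. Plasma cell markers, 5 genes, summed to 14911 to 38930 in wild type and 8451 to 9894 in irf4-/-. The part of these other cells in the values below was not tested beyond the fits that carry them as a term, and in RNA of whole preparations fewer cells of a type and less RNA per cell cannot be told apart.

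The 35 genes as a group were close to level between the genotypes on their brightest probe sets. A wider list of pathway genes is described separately below. Rasgrp3, which encodes an exchange factor that loads RAS with GTP, fell by 0.56 ± 0.12 on the log2 scale in irf4-/- B cells (SE, n = 4 and 4; limma, adjusted p = 0.0251), and none of the other 34 genes passed. That is 1 of 35 genes lower (2.86%) and none higher, where 4.37% of all 11798 genes tested were called, 1.7% lower and 2.67% higher, so the share called was near the background. At an unadjusted p below 0.05, 5 of the 35 were higher and 3 lower, 22.9% of the genes against 20.4% of all genes tested. The median log2 fold change was 0.011 over the 35 genes and 0.025 over all genes tested, and the median size of the change regardless of sign was 0.11 and 0.15. The signals of the 2 genotypes did not overlap for 2 genes with irf4-/- above and 2 with irf4-/- below. These are 5.71% each, near the 7.13% above and 5.71% below of all genes tested.

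A p above the threshold does not show that a gene is unchanged, so the 95% interval of each fold change was set against a 1.5-fold change either way (0.585 on the log2 scale). For 31 of the 35 genes (88.6%) the whole interval lay inside those limits, against 61.9% of all genes tested. The intervals of Rasgrp3, Cd72, Cblb and Ptpn22 reached beyond them. The median SE was 0.10 for these genes and 0.13 for all genes tested.

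**Figure D1:**
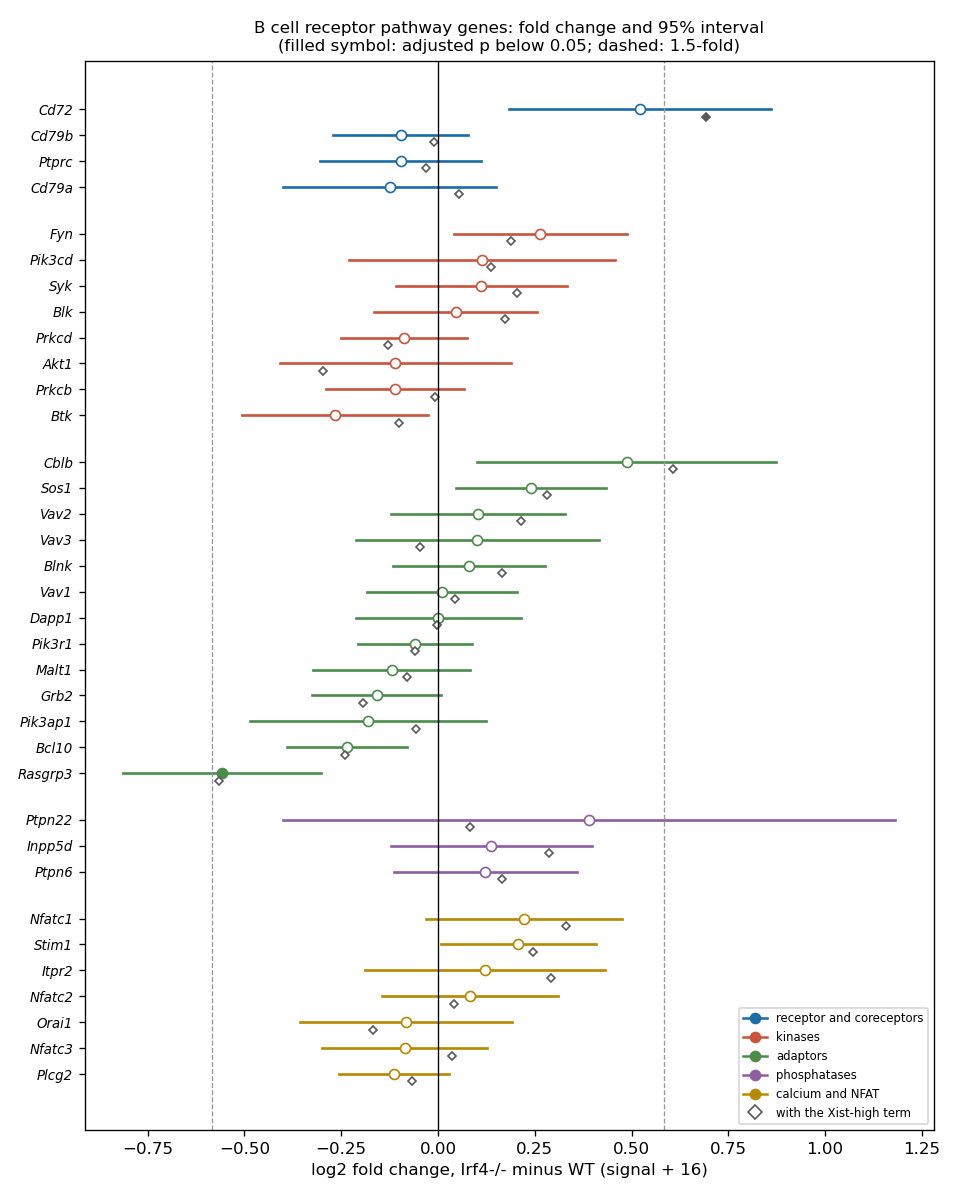
Log2 fold change (irf4-/- minus wild type, on the x axis) of the 35 genes, by pathway step, with bars for the 95% interval from limma; grey diamonds show the value with the Xist-high term and filled symbols an adjusted p below 0.05. The circle of Rasgrp3 and the diamond of Cd72 are the filled symbols, and the bars of 31 genes stay between the dashed lines at a 1.5-fold change.

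Among the receptor and its coreceptors, the signalling chains of the receptor were similar in both genotypes, while the coreceptor Cd72 had a positive fold change that did not pass. Cd79b, which encodes the beta chain, gave signals of 23184, 21293, 22838 and 24861 on wild-type arrays 1 to 4 and of 23765, 20616, 22666 and 19326 on irf4-/- arrays 1 to 4. The groups overlapped, and the log2 fold change was -0.096 with a 95% interval of -0.27 to 0.08 (limma, adjusted p = 0.601). Cd79a, the alpha chain, averaged 2299 ± 286 (SD) in wild type against 2113 ± 331 in irf4-/- (log2 fold change -0.12, interval -0.40 to 0.15). Ptprc, the phosphatase CD45 that keeps Src family kinases ready to act, read 25910, 23764, 26924 and 26044 in wild type against 25414, 26082, 25543 and 19493 in irf4-/-. Its groups overlapped as well, with irf4-/- array 4 below all others (log2 fold change -0.097, interval -0.30 to 0.11, limma, adjusted p = 0.667).

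Cd72, an inhibitory coreceptor that recruits the phosphatase encoded by Ptpn6, read 6187, 4202, 6214 and 7439 in wild type against 8627, 7420, 8110 and 9875 in irf4-/-. The 2 groups met only where irf4-/- array 2 lay just below wild-type array 4. The log2 fold change was 0.52 ± 0.15 (SE, interval 0.18 to 0.86), which did not pass (limma, adjusted p = 0.0988). It passed with the Xist-high term (0.69, adjusted p = 0.033) and with the mean of the other-cell markers as a covariate (0.78, adjusted p = 0.00981). That mean was 8.06 to 8.41 on Xist-high and 9.01 to 9.67 on Xist-low arrays. The terms thus part the arrays alike, cannot be told apart here and are not separate checks. The Cd72 value was 0.39 within the Xist-high arrays and 0.998 within the Xist-low arrays, where the lone wild-type array 2 held the lowest Cd72 signal of the 8. The difference between those values had an unadjusted p of 0.0275 and an adjusted p of 0.608 (limma interaction).

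None of the 8 kinases passed (limma), and all 8 intervals lay within a 1.5-fold change; 2 had an unadjusted p below 0.05, Fyn upward and Btk downward. Fyn, a Src family kinase that T and NK cells also express, read 947, 1004, 1012 and 876 in wild type against 1032, 1079, 1349 and 1181 in irf4-/-. All irf4-/- arrays lay above all wild-type arrays, a separation seen in the same direction for 7.13% of all genes tested. The log2 fold change of Fyn was 0.26 ± 0.10 (limma, adjusted p = 0.203) and 0.19 with the Xist-high term (adjusted p = 0.505). With the mean of the 41 other-cell markers as a covariate it was 0.17 (adjusted p = 0.595). T cell and NK cell marker levels were also highest on irf4-/- array 3, the array with the highest Fyn signal, at a mean log2 level of 9.52 and 10.3. They were next highest on irf4-/- array 2 (8.71 and 10.04), where Fyn read 1079. That was below the 1181 of irf4-/- array 4, where the levels were 8.34 and 9.72. Without irf4-/- array 3 the value for Fyn was 0.19 (limma, adjusted p = 0.391). The part of T and NK cells in the Fyn signal was not tested.

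Btk, an X-linked Tec family kinase that activates PLCG2, read 3894, 3041, 3871 and 3539 in wild type against 3563, 2809, 2881 and 2674 in irf4-/-. Its high and low signals followed the Xist split more closely than genotype: the 4 Xist-high arrays read 3539 to 3894 and the 4 Xist-low arrays 2674 to 3041. The levels of the other-cell markers and of the B cell markers part the arrays in the same way, and these cannot be told apart here. Btk was not called for the Xist-high term (0.33, limma, adjusted p = 0.0656). The log2 fold change was -0.27 ± 0.11 without the Xist-high term (limma, adjusted p = 0.235) and -0.10 with it (adjusted p = 0.649). Prkcb, protein kinase C beta, which leads from diacylglycerol to NF-kappaB, read 10545, 8729, 10710 and 10826 in wild type against 10047, 9109, 9570 and 8947 in irf4-/-. The groups overlapped, and wild-type array 2 was the lowest (log2 fold change -0.11, interval -0.29 to 0.07, limma, adjusted p = 0.548).

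The other 5 kinases had log2 fold changes between -0.11 and 0.11. Syk, the first kinase to dock on the receptor tails, averaged 7341 ± 824 (SD) in wild type against 7934 ± 886 in irf4-/- (log2 fold change 0.11), and the Src family kinase gene Blk 3970 ± 384 and 4099 ± 418 (0.05). Pik3cd, the lipid kinase subunit p110 delta, stood at 0.11 with an interval of -0.23 to 0.46. Prkcd, a protein kinase C that restrains B cell activation, stood at -0.09 and the survival kinase gene Akt1 at -0.11.

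**Figure D2:**
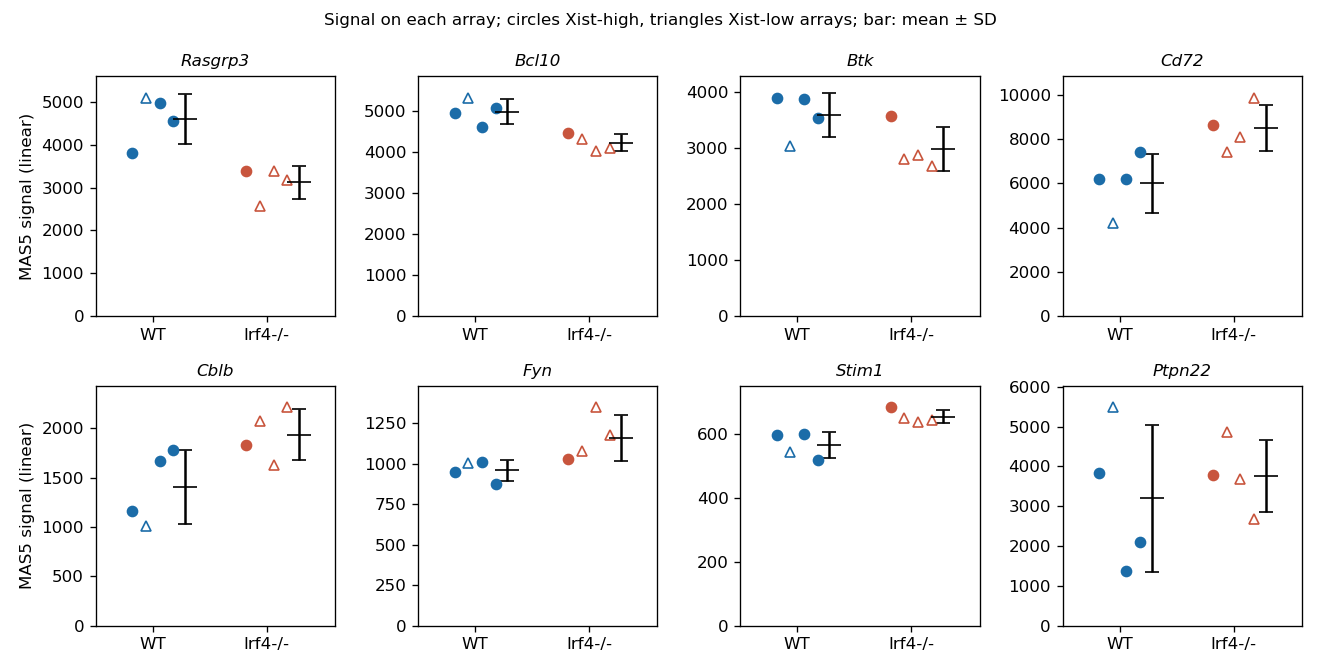
MAS5 signal (y axis, linear, from 0) of 8 pathway genes on each array, in wild type (blue) and irf4-/- (red), with circles for Xist-high arrays, triangles for Xist-low arrays and bars for mean ± SD over 4 arrays. The genotypes separate for Rasgrp3, Bcl10, Fyn and Stim1, Btk is lower on the Xist-low arrays of both genotypes, and Ptpn22 spreads from 1379 to 5484 in wild type.

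The adaptors and exchange factors held the 1 gene that passed, Rasgrp3, which links diacylglycerol to RAS in B cells. Rasgrp3 read 3801, 5099, 4978 and 4567 in wild type against 3393, 2565, 3382 and 3170 in irf4-/-, so every irf4-/- array lay below every wild-type array, as for 5.71% of all genes tested. Means were 4611 ± 586 (SD) and 3127 ± 389. A second probe set of the gene, which read 1050, 1629, 1422 and 1213 in wild type against 917, 972, 870 and 832 in irf4-/-, also separated the groups and passed (log2 fold change -0.54 ± 0.13, limma, adjusted p = 0.0451). With the Xist-high term the brighter probe set stood at -0.57 and narrowly missed the threshold (adjusted p = 0.0555), while the second passed at -0.63 (adjusted p = 0.0403). The call of the brighter probe set was also lost when wild-type array 3 (adjusted p = 0.0792), wild-type array 4 (0.0731), irf4-/- array 2 (0.065) or irf4-/- array 4 (0.069) was left out, with values from -0.57 to -0.47. It stood at -0.38 within the Xist-high arrays (adjusted p = 0.368) and -0.75 within the Xist-low arrays (0.162). The call of the second was lost without any 1 of wild-type arrays 3 and 4 and irf4-/- arrays 1 to 4 (adjusted p up to 0.132).

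The start regions of Rasgrp3, as the gene that passed, and of Cd72, which passed with the Xist-high term, are printed from RefSeq (GRCm38.p6), each from 250 bases before to 50 bases after an annotated transcription start, 5′ to 3′ on the strand of the gene. Windows were searched on both strands for 2 motifs that IRF4 is known to bind: the Ets-IRF composite element (GGAA, any 2 bases, then GAAA) and the interferon-stimulated response element (GAAA, any 2 bases, then GAAA). Matches would be in capitals, and these 3 windows hold none. The windows lie at chr17:75435655-75435954 (plus strand) and chr17:75465288-75465587 (plus strand) for Rasgrp3 and at chr4:43454577-43454876 (minus strand) for Cd72.
Rasgrp3, start 1: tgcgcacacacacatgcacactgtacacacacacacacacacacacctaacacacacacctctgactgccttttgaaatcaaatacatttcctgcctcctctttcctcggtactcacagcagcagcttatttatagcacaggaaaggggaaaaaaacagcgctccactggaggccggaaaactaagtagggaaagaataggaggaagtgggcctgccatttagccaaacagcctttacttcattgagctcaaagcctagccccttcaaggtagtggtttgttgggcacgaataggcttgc
Rasgrp3, start 2: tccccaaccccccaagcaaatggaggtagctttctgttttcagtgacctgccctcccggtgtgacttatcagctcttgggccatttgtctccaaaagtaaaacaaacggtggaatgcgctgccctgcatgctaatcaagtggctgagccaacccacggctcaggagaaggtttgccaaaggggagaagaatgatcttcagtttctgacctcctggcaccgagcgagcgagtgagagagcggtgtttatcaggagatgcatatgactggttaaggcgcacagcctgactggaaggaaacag
Cd72: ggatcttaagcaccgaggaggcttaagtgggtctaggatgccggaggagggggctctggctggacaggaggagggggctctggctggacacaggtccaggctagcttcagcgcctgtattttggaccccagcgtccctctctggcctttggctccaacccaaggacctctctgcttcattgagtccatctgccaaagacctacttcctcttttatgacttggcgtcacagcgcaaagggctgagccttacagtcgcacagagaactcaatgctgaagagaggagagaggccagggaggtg

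Of the 38 listed genes 31 had a start region in the RefSeq table, and 2 of them, Cblb and Dapp1, held the composite element, where 3.16% of all 27025 genes with a window did. None held the response element, against 3.99% of all genes, and a match of 1 motif may overlap a match of the other. The matches are a description of the letters and not of binding. The Cblb window lies at chr16:52031299-52031598 (plus strand) with the match starting 241 bases before the start, and the Dapp1 window at chr3:137981500-137981799 (minus strand) with the match 14 bases before it. Both matches, in capitals, are the element read on the opposite strand.
Cblb: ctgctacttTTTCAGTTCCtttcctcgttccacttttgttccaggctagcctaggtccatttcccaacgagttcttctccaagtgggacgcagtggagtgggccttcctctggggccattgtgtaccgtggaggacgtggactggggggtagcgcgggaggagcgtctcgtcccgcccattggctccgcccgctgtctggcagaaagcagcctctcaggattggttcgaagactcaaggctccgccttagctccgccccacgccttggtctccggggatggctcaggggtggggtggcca
Dapp1: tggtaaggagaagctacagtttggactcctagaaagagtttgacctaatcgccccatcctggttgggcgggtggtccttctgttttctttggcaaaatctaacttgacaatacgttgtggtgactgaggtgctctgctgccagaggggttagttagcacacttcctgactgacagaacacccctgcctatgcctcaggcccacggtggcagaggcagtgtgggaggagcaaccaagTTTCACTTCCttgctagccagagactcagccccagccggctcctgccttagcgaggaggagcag

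Cblb, a ubiquitin ligase that marks signalling proteins for removal and dampens receptor signals, read 1164, 1011, 1663 and 1779 in wild type against 1828, 2076, 1626 and 2211 in irf4-/-. The groups overlapped through irf4-/- array 3, and wild-type arrays 1 and 2 were low. The log2 fold change was 0.49 ± 0.18 (interval 0.10 to 0.87), which did not pass (limma, adjusted p = 0.174; 0.15 with the Xist-high term). Its other 2 probe sets stood at 0.23 and 0.37. Dapp1, an adaptor that binds the lipid product of phosphoinositide 3-kinase, had the smallest change of all 35 genes, 0.00075, with 1612 ± 179 (SD) in wild type against 1608 ± 115 in irf4-/-.

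Bcl10 and Malt1 encode partners in the complex that carries receptor signals to NF-kappaB. Bcl10 read 4945, 5323, 4601 and 5076 in wild type against 4474, 4323, 4020 and 4108 in irf4-/-. Every irf4-/- array was below every wild-type array, as for 5.71% of all genes tested, and the change of -0.24 ± 0.07 did not pass (limma, adjusted p = 0.104). Malt1 stood at -0.12 with an interval of -0.32 to 0.08. Grb2 and Sos1, the adaptor and exchange factor of the other route to RAS, stood at -0.16 (interval -0.33 to 0.01) and 0.24 (0.05 to 0.44), and Sos1 had an unadjusted p of 0.0199 (limma, adjusted p = 0.183).

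The scaffold Blnk, on which SYK, BTK and PLCG2 meet, averaged 12239.5 ± 1370.2 (SD) in wild type against 12909 ± 1043 in irf4-/-, a log2 fold change of 0.08. The exchange factors Vav1, Vav2 and Vav3, which activate RAC proteins, stood at 0.011, 0.10 and 0.10 on their brightest probe sets. Each of these intervals held 0. The other Vav2 probe set above the dim limit had the opposite sign, at -1.20 ± 0.37, and did not pass (limma, adjusted p = 0.111). It was dim, with a mean signal of 86.3 in wild type against 24.2 in irf4-/-, and its groups overlapped. Pik3r1, the regulatory subunit of phosphoinositide 3-kinase, stood at -0.06 with an SE of 0.07, and Pik3ap1, the adaptor BCAP that helps recruit it to the membrane, at -0.18 with an SE of 0.14.

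By limma on the brightest probe sets none of the 3 phosphatase genes passed, 0 had an unadjusted p below 0.05, and all 3 point estimates were positive. Ptpn6, the phosphatase SHP-1 that inhibitory receptors recruit, read 10604, 9407, 10879 and 12558 in wild type against 11191, 10121, 12382 and 13647 in irf4-/-. The groups overlapped over most of their range (log2 fold change 0.12, interval -0.11 to 0.36, limma, adjusted p = 0.63). The other Ptpn6 probe set had the opposite sign, at -0.11, and the mean of both stood at 0.005. Inpp5d, the lipid phosphatase SHIP1 that removes the product of phosphoinositide 3-kinase, read 3787, 2983, 3091 and 3098 in wild type against 4472, 3268, 3413 and 3182 in irf4-/-. Array 1 was the highest of both genotypes, and the change was 0.14 (interval -0.12 to 0.40, limma, adjusted p = 0.619). The other Inpp5d probe set stood at 0.07.

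Ptpn22, a phosphatase that restrains Src and SYK family kinases in lymphocytes, had the widest spread of the 35 genes. It read 3831, 5484, 1379 and 2090 in wild type against 3772, 4877, 3678 and 2668 in irf4-/-, so the wild-type arrays enclosed all irf4-/- arrays. Its interval ran from -0.40 to 1.18 around 0.39 (limma, adjusted p = 0.646), which allows a change of more than 1.5-fold. The sign differed between the Xist-high arrays (0.76) and the Xist-low arrays (-0.59), with an unadjusted p of 0.0603 for that difference (limma interaction).

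Among the calcium and NFAT genes, by brightest probe set none of the 7 passed by limma, 1 had an unadjusted p below 0.05, and all 7 intervals lay within a 1.5-fold change. Plcg2, the phospholipase that makes the calcium-releasing messenger, read 5425, 5332, 5345 and 5764 in wild type against 5408, 4908, 5005 and 4901 in irf4-/-. One irf4-/- array lay among the wild-type values (log2 fold change -0.11, interval -0.25 to 0.03, limma, adjusted p = 0.418). Itpr2, a calcium channel of the endoplasmic reticulum, stood at 0.12 with an interval of -0.19 to 0.43. Orai1, the channel through which calcium enters from outside, stood at -0.08 with an interval of -0.36 to 0.19.

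Stim1, the sensor of calcium stores that opens ORAI1, gave opposite directions on its 2 probe sets. The chosen one read 597, 542, 600 and 520 in wild type against 683, 649, 638 and 644 in irf4-/- (log2 fold change 0.21, limma, adjusted p = 0.276). On it all irf4-/- arrays lay above all wild-type arrays, as for 7.13% of all genes tested. The other read 723, 639, 642 and 557 in wild type against 588, 461, 509 and 419 in irf4-/-, with most irf4-/- arrays below wild type (log2 fold change -0.37 ± 0.13, adjusted p = 0.152). Neither passed, so no direction can be given for Stim1. The suffix of the chosen probe set (_x_at) marks probes that may bind other transcripts too.

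Nfatc1, a calcium-dependent transcription factor with several transcript forms, read 3894, 2948, 4241 and 3558 in wild type against 4320, 3687, 4699 and 4307 in irf4-/- on its brightest probe set. The groups overlapped and the change of 0.22 did not pass (interval -0.03 to 0.48, limma, adjusted p = 0.362). Its other 4 probe sets had positive fold changes as well, and 2 passed. On the dimmer of those 2 the signal was 256, 245, 199 and 219 in wild type against 464, 448, 360 and 599 in irf4-/-, a rise of 0.96 ± 0.16 (limma, adjusted p = 0.00708; 0.0232 with the Xist-high term). That probe set passed on leaving out any 1 array (adjusted p up to 0.0305), though it did not within the Xist-high arrays (adjusted p = 0.0753) or the Xist-low arrays (0.31).

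The brighter of those 2 read 1249, 1558, 1325 and 1442 in wild type against 1871, 1965, 1678 and 2133 in irf4-/-, a rise of 0.45 ± 0.10 (limma, adjusted p = 0.0323). All irf4-/- arrays lay above all wild-type arrays on both. The call on the brighter was lost with the Xist-high term (adjusted p = 0.107) and on leaving out 6 of the 8 arrays in turn, all but wild-type array 2 and irf4-/- array 3 (adjusted p up to 0.104). With the mean of all 5 probe sets, Nfatc1 stood at 0.60 and passed (adjusted p = 0.0158). These probe sets were singled out after their values were seen. Nfatc2 and Nfatc3, the related factors of the family, stood at 0.08 and -0.09 on their brightest probe sets, with intervals that held 0. The other Nfatc3 probe set stood at -0.26 ± 0.09 and did not pass (limma, unadjusted p = 0.0158, adjusted p = 0.164).

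**Figure D3:**
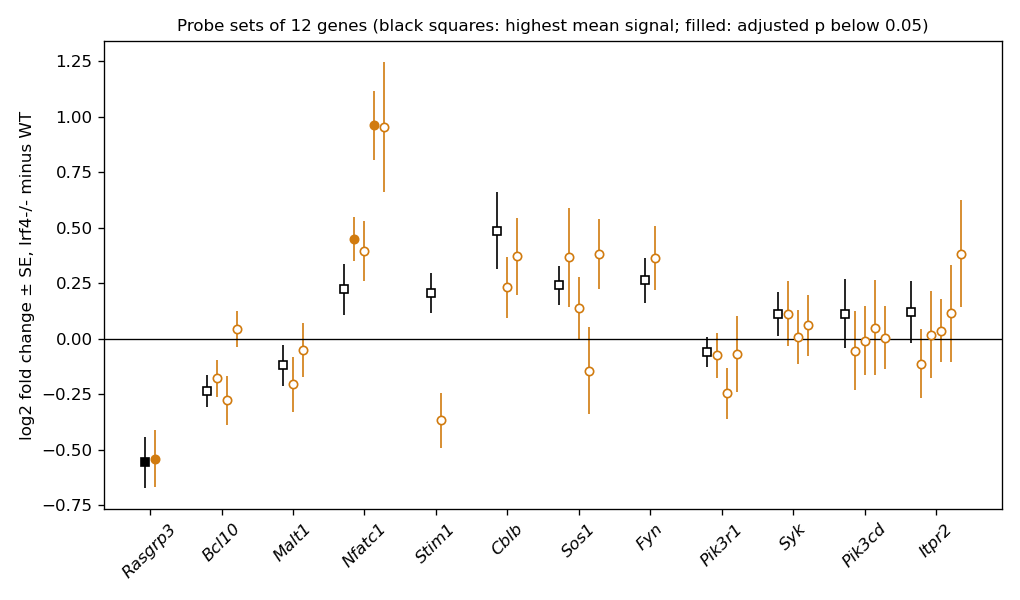
Log2 fold change ± SE (y axis) of every tested probe set of 12 pathway genes with 2 or more (x axis), with black squares for the brightest probe set and filled symbols for an adjusted p below 0.05. Both probe sets of Rasgrp3 and 2 of 5 for Nfatc1 are filled, and the 2 of Stim1 lie on opposite sides of 0.

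Of the 35 genes 27 had more than 1 probe set, which gave 58 further probe sets, of which 53 lay above the dim limit. In 40 of the 53 the fold change had the sign of the brightest probe set of the gene, and in 13 the opposite sign. The further probe sets called were 2 higher, both of Nfatc1, and 1 lower, of Rasgrp3, where 3.52% of all probe sets tested were called, 2.01% higher and 1.51% lower (17.1% at an unadjusted p below 0.05).

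None of the 35 genes passed for the Xist split itself. In the fit with genotype and Xist-high together, 0 of 35 genes were called for the Xist-high term (limma). Of all genes tested 3.18% were called, 0.263% higher and 2.92% lower on Xist-high arrays. At an unadjusted p below 0.05 for that term stood 10 of the 35, a larger share than the 16.2% of all genes tested. The 3 smallest p-values belonged to Btk, Cd79a and Akt1, with Xist-high minus Xist-low differences of 0.33, 0.36 and -0.37 (limma, adjusted p = 0.0656, 0.102 and 0.15). In the same fit Cd72 alone was called for genotype, where 3.08% of all genes tested were called, 1.97% higher and 1.1% lower. For genotype 10 of the 35 had an unadjusted p below 0.05, again a larger share than the 16.4% of all genes tested. With the Xist-high term 30 of 35 intervals lay within a 1.5-fold change, against 59.7% of all genes tested. The interaction of genotype and Xist called none of the 35 genes (limma; 1, Cd72, at an unadjusted p below 0.05) and 0% of all genes tested (6.45% at an unadjusted p below 0.05).

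**Figure D4:**
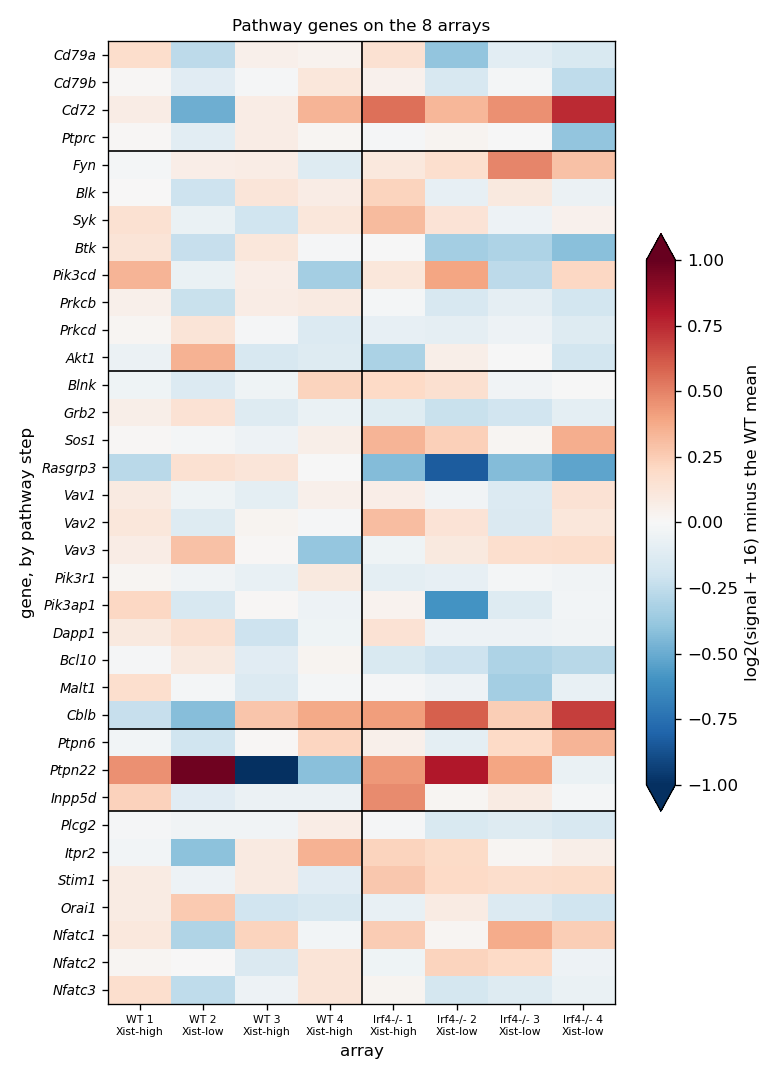
Difference of log2(signal + 16) from the wild-type mean (colour, red higher, blue lower) for the 35 genes (rows, by pathway step) on the 8 arrays (columns, with the Xist class under each). Rasgrp3 is blue on all 4 irf4-/- arrays and Cd72 red on them, while Ptpn22 runs from deep red to deep blue within wild type.

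Other genes of the pathway were read from a list of 78, of which 63 had a probe set with 1 gene symbol and all 63 were tested. Of these 2 rose, 1 fell and 60 did not pass, 3.17% and 1.59% of the list beside 2.67% and 1.7% of all genes tested. At an unadjusted p below 0.05, 22 genes stood out, 9 with positive and 13 with negative fold changes (34.9%, against 20.4% of all genes tested). The median log2 fold change of the 63 was -0.051, with 23 positive and 40 negative values. The genotypes did not overlap for 4 of them with irf4-/- above (6.35%) and 10 with irf4-/- below (15.9%). Of all genes tested these shares were 7.13% and 5.71%. For the Xist-high term 2 of the 63 were called, both lower on Xist-high arrays: Fgr, a Src family kinase that myeloid cells also express, at -0.81 (limma, adjusted p = 0.00872) and the phosphatase gene Ptpn12 at -0.46 (adjusted p = 0.0249). Both were named after their values were seen.

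Ptpn11, the phosphatase SHP-2 that promotes RAS signalling, read 2345, 2234, 2512 and 2420 in wild type against 3378, 3466, 3281 and 3851 in irf4-/-. It rose by 0.55 ± 0.08 (limma, adjusted p = 0.00263) with no overlap between groups, and also passed with the Xist-high term (0.56, adjusted p = 0.00704). Dok1, an adaptor that restrains RAS, read 498, 485, 475 and 492 in wild type against 623, 615, 647 and 674 in irf4-/-. It rose by 0.38 ± 0.09 (adjusted p = 0.0377), again with no overlap, and did not pass with the Xist-high term (0.37, adjusted p = 0.105). Pik3cg, the lipid kinase subunit p110 gamma, read 887, 932, 1007 and 953 in wild type against 610, 617, 820 and 584 in irf4-/-, and fell by 0.52 ± 0.11 (adjusted p = 0.0327; 0.0626 with the Xist-high term). Its groups did not overlap either, with irf4-/- array 3 nearest to wild type. Of the 3 genes, Ptpn11 passed in all 8 fits that left out 1 array. Dok1 passed in 1 of those 8, without wild-type array 2, and Pik3cg in 2, without wild-type array 2 or irf4-/- array 3.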

How the data were processed

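Each sample of splenic B cell RNA filled 1 Affymetrix mouse array, as the labels' protocols state. The deposited values are linear intensities that the authors made by MAS5, a step named in the submitters' processing notes; its version and target value are not stated in those notes. The deposited intensities share a mean of 500.003 on every array without the top and bottom 2% of probe sets, so no further normalization was applied. The number of arrays limits the precision.

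Of 45101 probe sets, 34958 had 1 symbol in the platform annotation, 932 several and 9211 were unnamed here. Older symbols were replaced by way of gene identifiers in the RefSeq table (34754 matched). After removal of 64 control probe sets and the dimmest 40% (mean log2 up to 5.88), log2(signal + 16) of 27022 probe sets was fitted with limma 3.58.1 in R 4.3.3 (lmFit, eBayes with trend) with Benjamini-Hochberg adjustment, and figures were drawn with matplotlib 3.10.9. Arrays over an Xist signal of 1000 were called Xist-high. The fit was tested on simulated data with known changes.

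The genes, lists and alternatives were chosen with earlier results of these data known. Values on every array are given for Irf4, for listed genes called for genotype in the main fit or with the Xist-high term, and for the 3 genes of each step with the smallest p. Of the wider pathway list they are given for genes called in the main fit. Fgr and Ptpn12, called for the Xist-high term, are named only. Genes of the wider list called only under the alternatives are counted and not named. Alternatives were the pseudocount, dim filter, normalization, variance model, array weights, replicate block, choice of probe set, Xist split, other-cell marker covariate, threshold and each array left out. The interval count and the further probe sets of Nfatc1, Rasgrp3, Vav2, Ptpn6, Inpp5d and Nfatc3 were added after seeing the data.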

Additional observations from a re-analysis of the deposited data

Results flagged for a closer look

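Within a genotype, 1 array lay far from the other 3 in 5 of the 78 groups of 4 arrays examined (35 pathway genes, Irf4 and the 3 called genes of the wider list, in 2 genotypes). By chance about 1 in 20 such groups stands out. Ptprc read 19493 on irf4-/- array 4, where the other irf4-/- arrays read 25414 to 26082. Prkcb read 8729 on wild-type array 2 against 10545 to 10826 on the others. Dapp1 read 1779 on irf4-/- array 1 against 1545 to 1561, and Inpp5d read 3787 on wild-type array 1 against 2983 to 3098. Pik3cg, called lower in irf4-/-, read 820 on irf4-/- array 3 against 584 to 617 on the other irf4-/- arrays. None of the 35 pathway genes passed the test of whether the genotype fold change differed between Xist-high and Xist-low arrays (limma interaction; 1 at an unadjusted p below 0.05).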

How the results depend on the processing

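Rasgrp3 was lower in irf4-/- under all 24 alternatives run on its fold change (-0.75 to -0.38) and lost its call in 9. The count of pathway genes called lower was 1, and was 0 without a variance trend, with the Xist-high term, within Xist-high arrays, within Xist-low arrays, with the other-cell marker covariate and at an adjusted p below 0.01; it ranged from 0 to 1 on leaving out 1 array. The count called higher was 0, and was 1 with the replicate block, the Xist-high term and the marker covariate (Cd72 each time) and 1 with probe sets of each gene averaged (Nfatc1); it was 0 without any 1 array. With the replicate number as a block, Cd72 stood at 0.52 (adjusted p = 0.0154). Arrays of the same number correlated at 0.237, 0.277, -0.0301 and -0.0807 in their deviations from the group means. Those numbered 1 and 2 share an Xist class between genotypes, and those numbered 3 and 4 do not. These correlations therefore cannot decide whether the numbers are pairs. The main fit did not take them as pairs. The median of the pathway genes was 0.011, -0.052 with a common median of arrays and -0.045 with the mean of all probe sets, and ran from -0.021 to 0.040 on leaving out 1 array. Intervals within a 1.5-fold change numbered 31, 19 within the Xist-low arrays and 31 without any 1 array (lowest and highest alike). The count of other pathway genes called was 3. It was 7 with the lowest 60% of probe sets dropped and with array weights, 6 with robust eBayes and with the mean of all probe sets, and 5 with the replicate block. It was 1 without a trend, with the Xist-high term, with the marker covariate and at an adjusted p below 0.01, and 0 within the Xist-high or the Xist-low arrays. It ranged from 1 (without wild-type array 3, irf4-/- array 2 or irf4-/- array 4) to 9 on leaving out 1 array, the highest without wild-type array 2, when the probe sets called over the whole array went from 950 to 2172. The cause of these shifts was not tested. Within the Xist classes 1 genotype has a single array, assumed to vary like the others. Without detection calls, weak signals may be background.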
